A study of Mus musculus with 20 samples.

Results

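The ductal and epithelial genes described here are 10 of the 22298 genes listed in the deposited liver libraries, namely Krt8, Krt18, Krt7, Krt19, Krt23, Epcam, Sox9, Spp1, Lad1 and Defb1. Of these, 8 were taken for what they mark, bile duct or stressed epithelium, whereas Lad1 and Defb1 were chosen by their log2 fold change with Pparg knockdown, since they were higher in the knockdown livers of these same libraries. The values that chose Lad1 and Defb1 are therefore given as a description with no test. The other members and the lists below were also chosen with earlier results of these data known. The adjusted p values do not account for that. The libraries are bulk RNA sequencing of whole liver from 20 male Lepr db/db mice, an obese and diabetic strain in which the leptin receptor is defective. Every mouse was injected in the tail vein with AAV8 at 5 weeks of age, and the vector carried non-targeting shRNA in the Vec and Vec+BBR groups and 4 shRNAs against Pparg in the shRNA and shRNA+BBR groups. Benzbromarone (BBR), a drug for gout, was given by gavage at 25 mg per kg once daily for 4 weeks in the Vec+BBR and shRNA+BBR groups, and the other groups received its vehicle. Each group held 5 mice. The labels of the libraries name the treatment, the vector and doses come from the study's methods, and the promoter that drives the shRNAs is not given in the sources used here. Because the vector is carried in blood and the tissue is whole liver, the libraries do not separate the cell types in which Pparg was lowered.

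Keratins are intermediate filament proteins that pair as one type I and one type II chain. Hepatocytes carry the pair of Krt8 and Krt18 alone, whereas cholangiocytes, the cells that line bile ducts, add Krt7 and Krt19, and Epcam and Sox9 are further markers of ducts and of immature liver epithelium. Spp1 encodes osteopontin, a secreted matrix protein of ducts, macrophages and injured liver, Krt23 is a type I keratin known to rise in stressed hepatocytes, Lad1 encodes ladinin, an anchoring protein of epithelial basement membranes, and Defb1 encodes an epithelial antimicrobial peptide.

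Total counts per library lay between 17432903 and 25024094, and values are given as normalized CPM, that is deposited counts divided by library size and scaled with TMM factors between 0.873 and 1.14. A count of 3, treated as the floor, was worth between 0.121 and 0.193 normalized CPM. Pparg itself had 24.8 ± 8.63 normalized CPM in Vec livers (SD, n = 5) and 5.73 ± 1.53 in shRNA livers, which did not overlap, and 31.8 ± 4.57 against 13.9 ± 6.22 under BBR, which did not overlap either. Knockdown left more Pparg under BBR, with a log2 fold change of 1.28 for shRNA+BBR against shRNA (SE 0.28, adjusted p = 0.00773, edgeR). In shRNA+BBR replicates 3 and 4 Pparg had 21.8 and 18.9 normalized CPM, within the Vec range of 16.4 to 35.9. Alb lay between 75100 and 124000 normalized CPM in every library, and the duct markers Cftr and Sctr had at most 2 counts in all 20. Vec replicate 3 stood apart from its group, with the highest Krt8, Krt18, Krt23, Spp1, Defb1 and Pparg of the 5 Vec livers, and calls of the genes named below that changed without it are given beside them.

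Levels of the 10 genes can be compared only per transcript length, for which the deposited FPKM values were used. Krt8 had a mean of 144 FPKM over 20 livers and Krt18 a mean of 103 FPKM, above 97.6% and 96.9% of the listed genes. Spp1 followed with 30.5 FPKM. Krt23 had 5.67, Defb1 4.11 and Lad1 2.96 FPKM, and the ranges of these 3 genes over the livers overlapped. The classical duct markers lay lowest, with 0.633 FPKM for Krt19, 0.404 for Epcam, 0.381 for Sox9 and 0.18 for Krt7, and neighbours in this order were not separated beyond their spread. The hepatocyte pair Krt8 and Krt18 held between 93.2% and 98.9% of the FPKM of the 5 keratins in each liver.

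**Figure D1:**
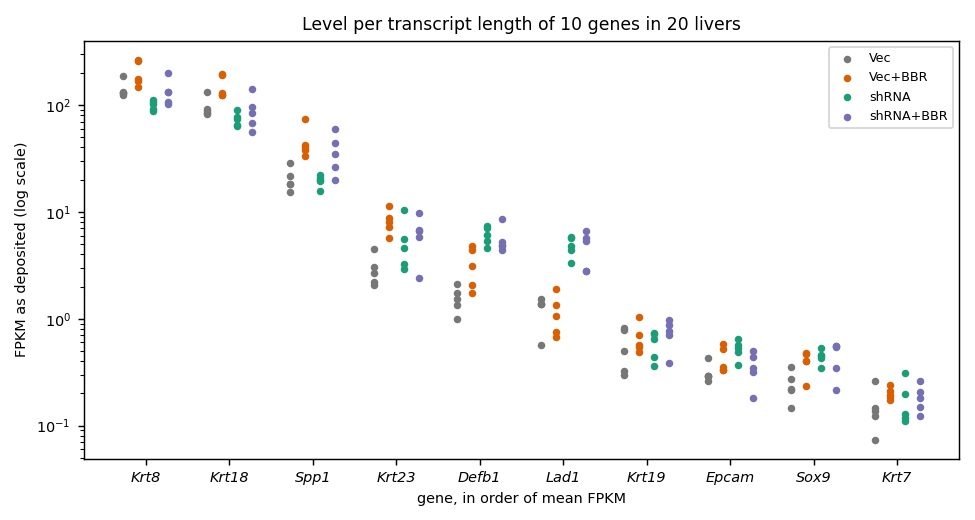
Deposited FPKM of each of the 10 genes in each of the 20 livers, on a log axis, with genes in order of their mean and 1 point per liver coloured by group. Krt8 and Krt18 sit above all others on average (means of 144 and 103 FPKM), and Krt19, Epcam, Sox9 and Krt7 have the lowest means, from 0.633 down to 0.18 FPKM.

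The duct markers rested on few reads. Krt7 had between 6 and 27 counts per library, Epcam between 8 and 28, Krt19 between 10 and 32 and Sox9 between 13 and 49. Krt8 had between 3830 and 10680 counts and Krt18 between 1573 and 5789. All 10 genes passed the filter on low counts and their counts were whole numbers in all 20 libraries, so that no fractional assignment of reads to several genes showed in them. Unlisted genes overlap exons of Krt7, Krt8 and Spp1 (Gm671, Gm36026 and Gm42793), and their reads could not be told apart from those of these members.

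Krt8 and Krt18 are neighbours on chromosome 15 of mm10 (GRCm38), where Krt8 (101996698 to 102004482, minus strand) and Krt18 (102028180 to 102032027, plus strand) point away from each other across 23.7 kb with 0 protein-coding genes between them. Because these genes moved together in the libraries, the bases before their starts are shown, with Spp1 as the gene whose level followed theirs. The sequences are from the RefSeq promoter table (GRCm38.p6), trimmed to bases before the first GENCODE exon and read 5′ to 3′ on the strand of the gene. The Krt8 bases are those of chr15:102004483-102004592 (minus strand), the Krt18 bases those of chr15:102027966-102028179 (plus strand) and the Spp1 bases those of chr5:104434861-104435110 (plus strand), and capitals mark matches to a searched motif.
Krt8: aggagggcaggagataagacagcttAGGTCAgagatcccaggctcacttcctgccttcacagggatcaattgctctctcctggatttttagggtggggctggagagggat
Krt18: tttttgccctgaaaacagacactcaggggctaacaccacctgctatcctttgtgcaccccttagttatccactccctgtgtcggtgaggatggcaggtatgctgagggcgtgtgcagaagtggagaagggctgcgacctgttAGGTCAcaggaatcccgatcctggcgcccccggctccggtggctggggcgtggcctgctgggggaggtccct
Spp1: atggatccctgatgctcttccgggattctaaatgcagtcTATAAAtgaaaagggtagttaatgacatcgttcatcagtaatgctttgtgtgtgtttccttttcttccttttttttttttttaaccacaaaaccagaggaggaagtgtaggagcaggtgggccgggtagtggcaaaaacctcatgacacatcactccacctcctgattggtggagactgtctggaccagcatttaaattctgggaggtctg
The motifs searched on both strands of the 250 bases before the RefSeq start were AGGTCA (the core site of nuclear receptors), AGGTCANAGGTCA (that site repeated with a 1 base spacer), TGANTCA (the AP-1 site), GGGCGG (the GC box) and TATAAA. Of the 10 genes, 7 had an entry, and those without one were Krt19, Sox9 and Defb1. AGGTCA was found in Krt8, at bases 225 to 220 before the start, and in Krt18, at bases 108 to 103, and 14% of 32851 promoters hold it. The repeated site, held by 0.0335% of promoters, and TGANTCA, held by 6.75%, were found in none of the 7. TATAAA, held by 12.4%, was found in Spp1, at bases 211 to 206 before the start. GGGCGG, held by 32.7%, was found 4 times in Krt7 and once in Epcam. The Krt7 window (chr15:101412153-101412402) lies inside the gene as GENCODE gives it, which starts at 101411043. Krt23 and Lad1 matched none of the motifs.

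The first question was what BBR did to these genes in livers with the control vector. Krt23 and Spp1 rose, and the other members were not past the threshold. In all, 2 of the 8 tested members were called at an adjusted p under 0.05 (edgeR, over all 12342 genes tested), where 15.5% of all genes were called, 7.58% higher and 7.88% lower. All 8 had a log2 fold change above 0, with a median of 0.45 against −0.005 for all genes. The 8 are not independent of each other, since Krt8 and Krt18 moved together (r = 0.96). The signs for Krt7 and Krt19 turned when single libraries were left out. Of the 5 comparisons made, those that share a group share its livers.

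Krt23 had 3.46, 3.98, 7.40, 4.21 and 4.90 normalized CPM in the 5 Vec livers. The Vec+BBR livers had 18.5, 12.0, 11.1, 8.30 and 12.4. All Vec+BBR livers thus lay above all Vec livers, with means of 12.5 ± 3.74 and 4.79 ± 1.55 (SD, n = 5 each). Krt23 had a log2 fold change of 1.38 (SE 0.34, adjusted p = 0.00943, edgeR), a 2.59-fold rise. Across the alternatives the adjusted p of Krt23 lay between 0.000604 and 0.0332.

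Spp1 had 27.3, 29.4, 42.8, 21.8 and 31.4 normalized CPM in Vec livers. In Vec+BBR livers it had 55.4, 91.9, 46.5, 53.3 and 58.5. These groups did not overlap, with Vec replicate 3 the highest without BBR and Vec+BBR replicate 2 far above its group. Spp1 had a log2 fold change of 1.00 (SE 0.24, adjusted p = 0.00745, edgeR), so that the level rose 2.0-fold.

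In the same contrast Krt8 had 270, 275, 388, 262 and 257 normalized CPM in Vec livers and 299, 455, 323, 477 and 339 in Vec+BBR livers. The groups overlapped through Vec replicate 3 alone, which exceeded 3 of the treated livers. The log2 fold change of Krt8 was 0.38 (SE 0.17, adjusted p = 0.137, edgeR) and that of Krt18 was 0.52 (SE 0.20, adjusted p = 0.0826). Neither was called with all libraries, and both were called without Vec replicate 3, as Krt18 was without shRNA+BBR replicate 4. Without Vec replicate 3 they had log2 fold changes of 0.50 and 0.66 and adjusted p of 0.0447 and 0.0268 (edgeR). In that fit 4 of the 8 members were called. Sox9, a transcription factor of duct cells, had a log2 fold change of 0.57 (adjusted p = 0.142, edgeR), and 4 of 5 treated livers lay above all Vec livers. Krt7, Krt19 and Epcam had log2 fold changes of 0.15, 0.15 and 0.29 with adjusted p of at least 0.508, at means between 0.579 and 1.01 normalized CPM, with SE of 0.32, 0.32 and 0.27.

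**Figure D2:**
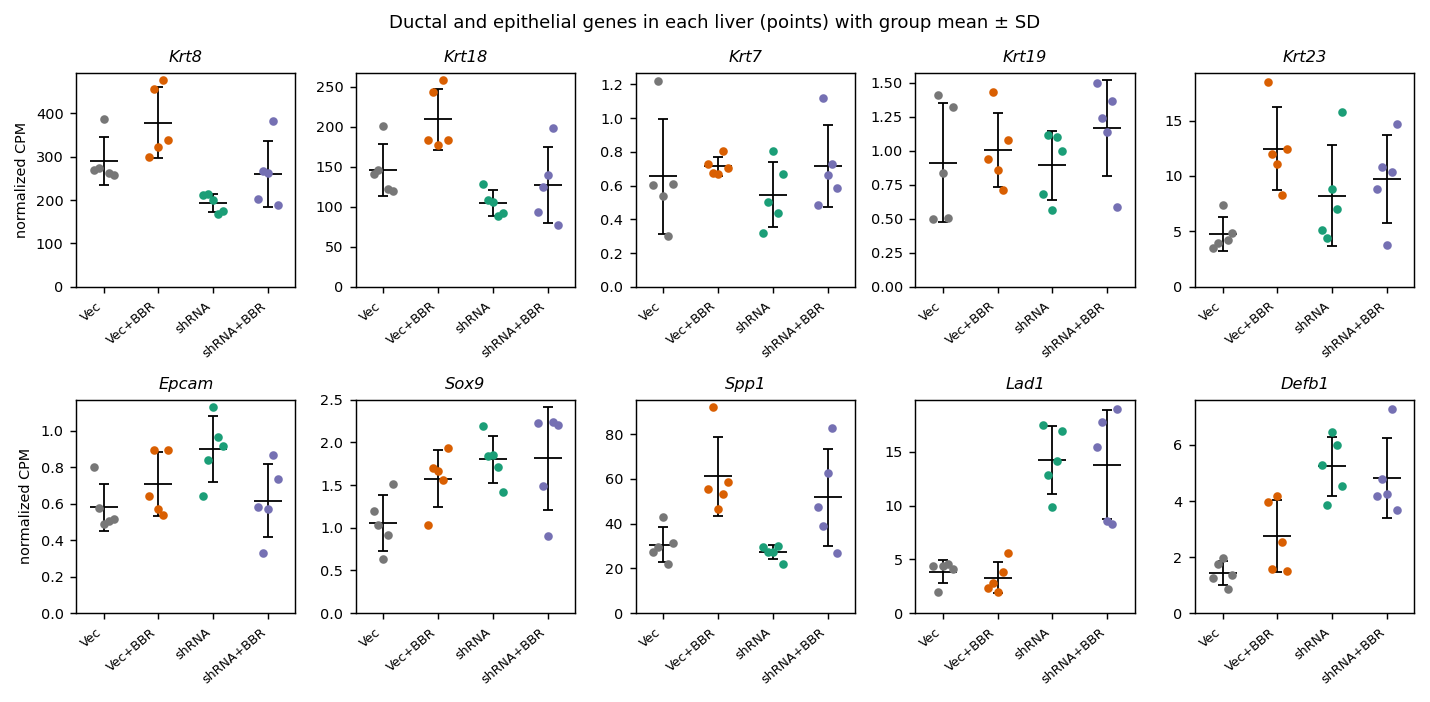
Normalized CPM of each of the 10 genes (y axis, starting at 0, own scale per gene) in the 5 livers of each group (points), with the group mean and SD. Krt23 and Spp1 separate Vec+BBR from Vec, Krt8 separates shRNA from Vec, and Lad1 sits between 8.26 and 19.0 in the knockdown livers and between 1.93 and 5.60 in the others.

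The second question was how the genes differed with Pparg knockdown in vehicle-treated livers. Krt8 was lower, and it was the 1 member of 8 that was called, where 13.2% of all genes were called, 5.28% higher and 7.91% lower. The median log2 fold change of the 8 was −0.10 against −0.009 for all genes, with 3 members above 0 and 5 below. Krt8 had 211, 214, 200, 169 and 174 normalized CPM in shRNA livers, all below the lowest Vec liver at 257. The log2 fold change was −0.58 (SE 0.17, adjusted p = 0.0301, edgeR), with means of 193 ± 20.9 and 290 ± 54.9 (SD, n = 5 each). Fewer cells of a type and less RNA per cell cannot be told apart in bulk liver. The call was lost when shRNA replicate 3, 4 or 5 was left out, and without Vec replicate 3, where the log2 fold change of Krt8 was −0.46 (adjusted p = 0.0934, edgeR).

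Krt18 moved in the same direction, from 146 ± 32.9 to 105 ± 16.1 normalized CPM, and was not called (log2 fold change −0.48, SE 0.20, adjusted p = 0.118, edgeR). Its Vec values were 141, 146, 201, 122 and 120 normalized CPM, and its shRNA values were 129, 108, 106, 88.3 and 91.7. In 4 of 5 shRNA livers Krt18 lay below all Vec livers, and shRNA replicate 1 overlapped them.

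Sox9 and Epcam, the markers of immature and ductal epithelium, lay on the other side of 0. Sox9 had 1.20, 1.03, 0.637, 0.913 and 1.51 normalized CPM in Vec livers against 2.19, 1.84, 1.85, 1.71 and 1.42 in shRNA livers. Of the shRNA livers, 4 were above every Vec liver. The log2 fold change was 0.76 (SE 0.26) and the adjusted p of 0.0536 (edgeR) missed the threshold, whereas DESeq2 called Sox9, as did edgeR without Vec replicate 5, Vec+BBR replicate 1 or shRNA+BBR replicate 3. Epcam had a log2 fold change of 0.63 (adjusted p = 0.111, edgeR), from 0.579 ± 0.129 to 0.897 ± 0.179 normalized CPM, with 4 of 5 shRNA livers above all Vec livers. Krt23 had a log2 fold change of 0.78 (adjusted p = 0.132, edgeR) with shRNA replicate 5 at 15.8 and the other shRNA livers at 5.12, 4.41, 8.78 and 7.01 normalized CPM. Spp1 had 29.5, 27.1, 27.4, 30.2 and 21.9 normalized CPM in shRNA livers, within the range of the Vec livers, and a log2 fold change of −0.17 (adjusted p = 0.68, edgeR). Krt7 and Krt19 had log2 fold changes of −0.22 and −0.03 and adjusted p of 0.696 and 0.964 (edgeR).

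Under BBR, knockdown was compared between shRNA+BBR and Vec+BBR livers. Krt18 was lower, the 1 call among 8 tested members, where 8.13% of all genes were called (3.31% higher and 4.82% lower), and the median of the 8 was −0.22 against −0.004 for all genes. Krt18 had 184, 244, 177, 258 and 184 normalized CPM in Vec+BBR livers. It had 93.8, 125, 140, 199 and 76.9 in shRNA+BBR livers, where replicate 4 alone reached the range of the Vec+BBR group. The log2 fold change was −0.72 (SE 0.20, adjusted p = 0.0301, edgeR). The call was lost in a fit of only these 2 groups and without Vec+BBR replicate 2 or 4 or shRNA+BBR replicate 1, 2 or 5, and the adjusted p over the alternatives lay between 0.00434 and 0.0824.

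Krt8 had 202, 266, 262, 383 and 189 normalized CPM in shRNA+BBR livers, with 4 of 5 below every Vec+BBR liver. Its log2 fold change of −0.54 (SE 0.17, adjusted p = 0.0566, edgeR) was close to that without BBR and missed the threshold. DESeq2, limma voom and the fit with the replicate number as a block called it, as did edgeR without Vec replicate 3, Vec+BBR replicate 1 or shRNA+BBR replicate 4. Spp1 (−0.24), Krt23 (−0.36), Epcam (−0.20), Sox9 (0.20), Krt19 (0.22) and Krt7 (0.01) had log2 fold changes with an adjusted p of at least 0.526 (edgeR). The sign for Krt7 turned with limma voom and with the block.

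In livers with Pparg knockdown, BBR again raised Spp1, the 1 call among 8 tested members, where 15.7% of all genes were called, 8.37% higher and 7.28% lower. The median log2 fold change of the 8 was 0.33 against 0.008 for all genes. Spp1 had 47.4, 38.8, 62.8, 82.5 and 26.8 normalized CPM in shRNA+BBR livers. Of these, 4 lay above all shRNA livers and replicate 5 lay among them. The log2 fold change was 0.92 (SE 0.24, adjusted p = 0.0164, edgeR), and without shRNA+BBR replicate 3 or 4 the call was lost, with an adjusted p of up to 0.0528 over the alternatives. Replicates 3 and 4 had the highest Spp1 of the shRNA+BBR livers and also the highest Pparg, at 21.8 and 18.9 normalized CPM. Whether Spp1 followed Pparg there was not tested. Krt8 had a log2 fold change of 0.43 (adjusted p = 0.0911, edgeR) and was called without shRNA+BBR replicate 5. Krt23 had 8.82, 10.8, 3.79, 10.4 and 14.7 normalized CPM, which overlapped the shRNA livers, and a log2 fold change of 0.23 (adjusted p = 0.656, edgeR). Epcam was the 1 member below 0, at −0.55 (adjusted p = 0.135, edgeR). Krt18, Krt7, Krt19 and Sox9 had log2 fold changes of 0.28, 0.39, 0.40 and 0.01 with adjusted p of at least 0.341, and the sign for Sox9 turned with limma voom and with the block.

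**Figure D3:**
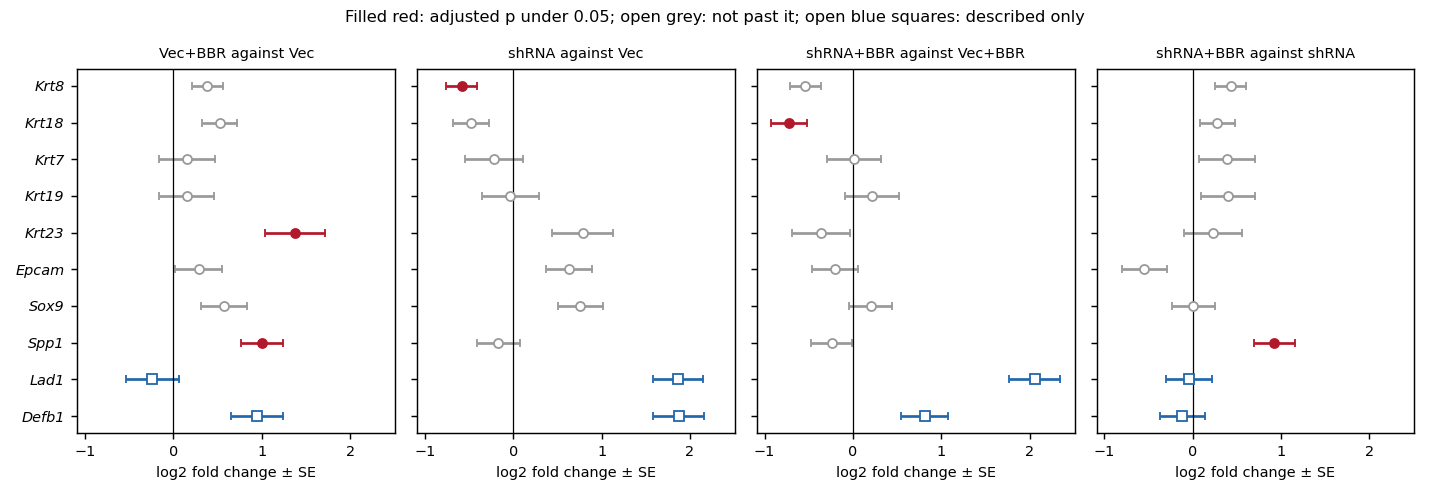
Log2 fold change and SE of each of the 10 genes in the 4 comparisons, from edgeR. Krt23 (1.38) and Spp1 (1.00) are called with BBR in Vec livers, Krt8 (−0.58) with knockdown, Krt18 (−0.72) with knockdown under BBR and Spp1 (0.92) with BBR in knockdown livers, and Lad1 and Defb1 are shown with no test.

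Whether BBR acted differently with and without knockdown was tested as the difference of the BBR effects. Pparg was higher in shRNA+BBR than in shRNA livers, so the knockdown groups did not hold it at the same level. None of the 8 members was called (edgeR, and none with DESeq2 or limma voom), where 0.146% of all genes were called (0.0729% higher and 0.0729% lower). Of the 8, 2 had an unadjusted p under 0.05 (edgeR), as had 2281 of all 12342 genes. The difference was −1.15 for Krt23 (SE 0.47, adjusted p = 0.207, edgeR) and −0.84 for Epcam (SE 0.37, adjusted p = 0.234). For Spp1 it was −0.08 (SE 0.33, adjusted p = 0.925), with log2 fold changes of 1.00 and 0.92 side by side. That Krt23 was called with BBR in Vec livers and not in shRNA livers is thus not shown to be a difference between them.

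Lad1, the basement membrane anchor, had 4.36, 1.93, 4.36, 4.56 and 4.14 normalized CPM in Vec livers. In shRNA livers it had 17.5, 12.8, 9.86, 14.1 and 16.9. All shRNA livers lay above all Vec livers, and the log2 fold change was 1.86 (SE 0.29). With BBR it had 2.35, 2.82, 2.0, 3.79 and 5.60 normalized CPM in Vec+BBR livers against 15.4, 17.8, 8.57, 8.26 and 19.0 with both treatments, and the difference was 2.06 on the log2 scale (SE 0.29) with no overlap. These are values of the contrast that chose the gene and are read as a description. BBR moved Lad1 by −0.24 (SE 0.30) in Vec livers and by −0.04 (SE 0.26) in shRNA livers on the log2 scale. Over the 20 livers the correlation of Lad1 with Pparg was −0.80, and after the group means were removed it was −0.25. Lad1 was chosen by its rise with knockdown, so a first value below 0 was set in advance. In the same order, Defb1 had −0.58 and 0.17 with Pparg, Krt8 0.83 and 0.51, Krt18 0.79 and 0.60, and Spp1 0.59 and 0.64.

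Defb1, the antimicrobial peptide, had 1.25, 1.74, 1.96, 0.862 and 1.37 normalized CPM in Vec livers and 5.30, 3.85, 6.48, 6.0 and 4.54 in shRNA livers. The groups did not overlap, and the log2 fold change was 1.87 (SE 0.29). Vec+BBR livers had 3.98, 1.57, 4.19, 2.54 and 1.51 normalized CPM and shRNA+BBR livers 4.17, 4.77, 4.26, 7.30 and 3.67. Under BBR the groups overlapped, with a log2 fold change of 0.81 (SE 0.27), since Vec+BBR replicates 1 and 3 reached the knockdown range. BBR moved Defb1 by 0.94 (SE 0.30) in Vec livers and by −0.12 (SE 0.26) in shRNA livers. The Vec and shRNA livers set beside BBR here are those whose difference chose Defb1 and Lad1. That choice favours low Vec and high shRNA values, so the BBR values of both genes are a description only. In the Vec+BBR group Defb1 had 2.76 ± 1.28 against 1.44 ± 0.428 in Vec, and Lad1 had 3.31 ± 1.45 against 3.87 ± 1.10 (SD, n = 5 each). Vec+BBR replicates 2 and 5 lay within the Vec range of Defb1, and a difference between the genes was not tested.

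Across the 20 livers, Krt8 and Krt18 followed each other closely, with a Pearson correlation of log2 CPM of 0.96, and of 0.95 after the group means were removed. Spp1 followed them at 0.73 with each, and at 0.71 with Krt8 and 0.77 with Krt18 within groups. These points share their library and its scaling, and the correlations are given as a description. Lad1 and Defb1 had a correlation of 0.57 over all livers and of −0.59 within groups, so that livers of a group with more Lad1 tended to have less Defb1. Both genes were chosen by their rise with knockdown, which carries into the value over all livers. Krt7 and Krt19 correlated with Krt8 at 0.32 and 0.14. The ratio of Krt8 to Krt18 FPKM was 1.47 ± 0.0956 in Vec, 1.32 ± 0.0735 in Vec+BBR, 1.36 ± 0.0956 in shRNA and 1.55 ± 0.171 in shRNA+BBR livers (SD, n = 5 each), and Krt8 exceeded Krt18 in every liver.

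**Figure D4:**
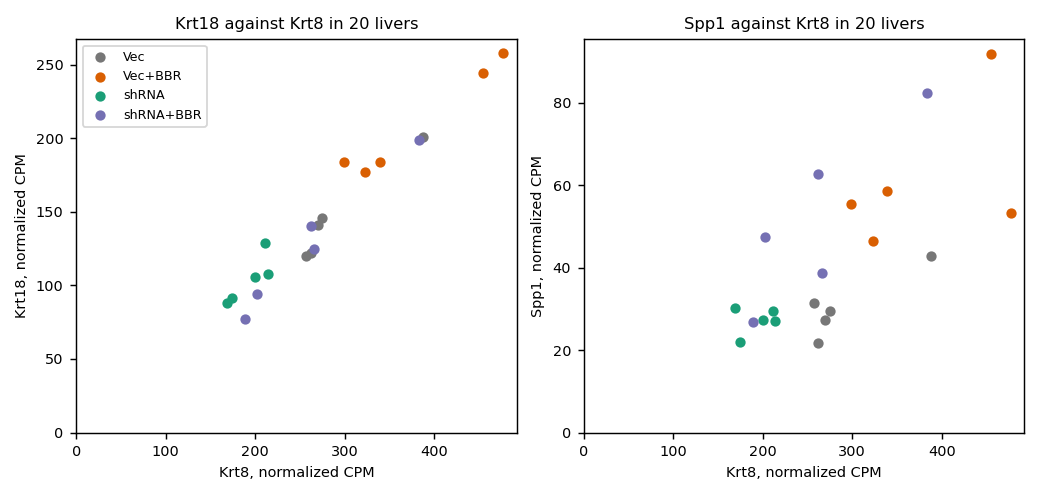
Krt18 (left) and Spp1 (right) against Krt8, both axes in normalized CPM from 0, with 1 point for each of the 20 livers coloured by group. Krt18 lies close to a line with Krt8 in all groups (r = 0.96 on the log2 scale), and Spp1 follows with more spread (r = 0.73).

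Among 9789 genes with a mean count of at least 50, those most alike in pattern over the 20 livers were named for each member that reached this count. For Krt8 they were Cilk1, Anxa7 and Vat1, with correlations of 0.93, 0.91 and 0.90. For Krt18 they were Cilk1 (0.92), Anxa7 (0.90) and Zfp655 (0.88). Cilk1 and Anxa7 thus stood first for both chains of the hepatocyte keratin, and Cilk1 kept 0.86 and 0.85 within groups. For Spp1 they were Matn2 (0.91, and 0.90 within groups), Tpm1 (0.90) and Ywhah (0.90). For Krt23 the highest values were lower, with Fcgr2b at 0.76, Aldh5a1 at 0.72 and Osbpl5 at 0.72, and 0.57, 0.47 and 0.68 within groups. For Lad1 they were Gtdc1 (0.91), Zbtb18 (0.90) and Plin5 (0.88), which fell to 0.45, 0.49 and 0.47 within groups. For Defb1 they were Atp6v0e (0.90), Tmem41b (0.90) and Atpaf1 (0.88), which fell to 0.57, 0.77 and 0.68. Both genes were chosen by their rise with knockdown, which carries into the values over all livers.

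Other duct markers were read from a list of 25 genes, of which 19 were tested. With BBR in Vec livers 2 rose and none fell, with knockdown 4 rose and none fell, with knockdown under BBR 2 rose and none fell, and with BBR in shRNA livers 1 rose and 2 fell. Of all genes, 7.58%, 5.28%, 3.31% and 8.37% were called higher in these contrasts, and 7.88%, 7.91%, 4.82% and 7.28% lower. The same share of each contrast applies to the lists below. The medians of the list were 0.27, 0.28, −0.08 and −0.07 in these contrasts. Wfdc2, an epithelial secreted protein, rose with BBR in both settings, by 2.14 and 1.45 on the log2 scale (adjusted p = 0.00166 and 0.0176, edgeR). It had 1.20, 1.22, 10.9, 1.37 and 4.52 normalized CPM in Vec livers, where replicate 3 was the highest as for Krt8, and between 12.8 and 18.9 in Vec+BBR livers. With Vec replicate 3 left out, Wfdc2 rose with BBR by 3.0 on the log2 scale (adjusted p = 3.8e-06, edgeR). Onecut1, a transcription factor of duct and hepatocyte development, rose with knockdown by 1.27 (adjusted p = 0.00634, edgeR) and fell with BBR in shRNA livers by 0.88 (adjusted p = 0.0419). Atp1b1, a sodium pump subunit, rose with knockdown by 0.60 without BBR and 0.84 with it (adjusted p = 0.00725 and 0.00142, edgeR). Prom1, a duct and progenitor marker chosen after its values were seen, is described with no test. It had 0.794 ± 0.439 normalized CPM in Vec and 4.42 ± 1.19 in shRNA livers (SD, n = 5 each), a log2 fold change of 2.46 (SE 0.36). Prom1 fell by 1.33 (SE 0.33) on the log2 scale with BBR in shRNA livers, to 1.76 ± 0.706 normalized CPM. The summed level of the list lay between 282 and 327 normalized CPM in Vec, 302 and 353 in Vec+BBR, 324 and 378 in shRNA and 336 and 371 in shRNA+BBR livers, while Cftr and Sctr stayed at or below 2 counts throughout.

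Among 12 other keratins only 2 were tested. Krt20, a keratin of surface epithelia that was chosen after its values were seen, had 0.0501, 0, 0.834, 0.0507 and 0.236 normalized CPM in Vec livers. In Vec+BBR livers it had 2.35, 2.24, 2.66, 2.77 and 1.41. It had 0.0438 to 0.458 in shRNA and 0.782 to 3.01 in shRNA+BBR livers, and with either vector all 5 livers given BBR lay above all 5 given vehicle. Its fitted log2 fold changes were 3.20 and 2.96 (SE 0.58 and 0.61), described with no test. They came from counts of 0 to 17 in Vec and 1 to 11 in shRNA livers, so that several vehicle livers lay at the floor. Without Vec replicate 3 the first of these fitted values for Krt20 was 4.56. Krt20 and Krt23 were thus both higher with BBR in Vec livers, and Krt20 also was in shRNA livers. The BBR effects on Krt23 were not shown to differ between the vectors (adjusted p = 0.207, edgeR).

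Genes of cell junctions and the basement membrane, where Lad1 acts, were read from a list of 30 with 29 tested. With BBR in Vec livers 6 rose and none fell, with knockdown 5 rose and 2 fell, with knockdown under BBR 1 rose and 3 fell, and with BBR in shRNA livers 2 rose and 3 fell. Cldn2, a claudin of tight junctions, fell with knockdown by 0.61 without BBR and by 0.87 with it (adjusted p = 0.0023 and 0.000301, edgeR). Tjp1, the scaffold of tight junctions, Marveld2, a tight junction protein, and Ppl, which joins desmosomes to filaments, rose with knockdown by 0.74, 0.74 and 0.73 (adjusted p of 0.00132, 0.00538 and 0.0386, edgeR). Without Vec replicate 3, 4 junction genes rose and 1 fell with knockdown, and Ppl was no longer called (0.57, adjusted p = 0.0902, edgeR). Of 15 tested genes of Notch and YAP signalling, which direct duct fate, none was called with knockdown in vehicle livers by edgeR or limma voom. By DESeq2 1 was lower, and 4 had an unadjusted p under 0.05 (edgeR), as had 3510 of all 12342 genes. Wwtr1, a relative of YAP, rose with BBR by 0.40 in Vec and 0.41 in shRNA livers (adjusted p = 0.00934 and 0.0126, edgeR), and Notch2 and Rbpj fell with knockdown under BBR by 0.52 and 0.38 (adjusted p = 0.0214 and 0.0246, edgeR). Axl, a receptor kinase and YAP target, rose with BBR in shRNA livers by 0.50, where Rbpj fell by 0.41 (adjusted p = 0.0229 and 0.0136, edgeR). With BBR in Vec livers Wwtr1 was the 1 call, with knockdown under BBR Notch2 and Rbpj were the 2 calls, and with BBR in shRNA livers 2 rose and 1 fell.

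Genes of stressed hepatocytes, read beside Krt23 and Spp1, numbered 16, all tested. With BBR 4 rose and 1 fell in Vec livers, and 5 rose and none fell in shRNA livers, with medians of 0.26 and 0.55. With knockdown 2 rose and 1 fell, and under BBR 1 rose and 1 fell. Anxa2, a membrane-binding annexin, rose with BBR by 1.47 and 1.83 in Vec and shRNA livers (adjusted p = 0.0272 and 0.0132, edgeR), and Vim, the filament of mesenchymal cells, by 0.58 and 1.00 (adjusted p = 0.019 and 0.00226). With Vec replicate 3 left out, the value for Anxa2 in Vec livers was 2.27. Ly6d rose with BBR in shRNA livers by 1.39 (adjusted p = 0.0311, edgeR). Cdkn1a, a cell cycle inhibitor, rose with knockdown by 1.29 (adjusted p = 0.0143, edgeR). Among 6 tested antimicrobial genes, the class of Defb1, none was called with knockdown in vehicle livers by edgeR, DESeq2 or limma voom. An unadjusted p under 0.05 (edgeR) was found for 1 of them in that contrast, and for 3510 of all 12342 genes. With BBR in Vec livers 1 rose and 3 fell, with knockdown under BBR 1 rose, and with BBR in shRNA livers 1 fell. In Vec livers given BBR, Hamp2 and Hamp, the hepcidin genes, fell by 1.26 and 1.21 (adjusted p = 0.0386 and 0.0169, edgeR). Pigr, the receptor that carries immunoglobulin A into bile, fell by 0.85, and Pglyrp2, which cleaves peptidoglycan, rose by 0.46 (adjusted p = 0.00581 and 0.0464, edgeR). Hamp2 rose with knockdown under BBR by 1.68, and Pigr fell with BBR in shRNA livers by 0.61 (adjusted p = 0.0152 and 0.038, edgeR).

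Markers of other cell types were read beside Spp1, which macrophages also express. Of 10 macrophage markers, 4 rose and 2 fell with BBR in Vec livers and 4 rose in shRNA livers, and with knockdown in vehicle livers 2 fell, neither of which was called without Vec replicate 3. Gpnmb, a gene of lipid-laden macrophages, rose by 1.96 and 2.24 (adjusted p = 0.00261 and 0.00457, edgeR) and Cd68 by 0.64 and 0.88 (adjusted p = 0.0373 and 0.0112), as did Cd9, a membrane tetraspanin, by 0.79 and 1.27 (adjusted p = 0.0334 and 0.00487). The 2 that fell with BBR in Vec livers were markers of resident macrophages, Marco and Timd4. Marco had a log2 fold change of −3.03 (adjusted p = 0.00287, edgeR), the largest change of the list in any of the 4 contrasts. Timd4, chosen after its values were seen and described with no test, had −0.78 (SE 0.25). The summed macrophage level did not separate the groups, with 114 to 276 normalized CPM in Vec, 174 to 261 in Vec+BBR, 149 to 197 in shRNA and 185 to 258 in shRNA+BBR livers, and Clec4f, a defining marker of Kupffer cells, lay between 37.2 and 74.9 in all libraries. The correlation of Spp1 with Gpnmb was 0.85 over the livers and 0.65 within groups. With Cd68 it was 0.76 and 0.47, with Trem2 0.70 and 0.34, and with Clec4f −0.10 and −0.17. Of 7 stellate cell markers, 3 rose with BBR in Vec livers and 4 in shRNA livers, with Col1a1 up by 1.18 and 1.70 (adjusted p = 0.0148 and 0.00463, edgeR), and Col1a1 fell with knockdown by 1.12 (adjusted p = 0.0303, edgeR). Without Vec replicate 3, 5 stellate markers rose with BBR in Vec livers, and the fall of Col1a1 with knockdown was not called (−0.85, adjusted p = 0.10, edgeR), nor was it by limma voom. Col3a1, a fibrillar collagen like Col1a1, rose with BBR by 1.03 and 1.40 (adjusted p = 0.0379 and 0.0117, edgeR), Pdgfrb by 0.64 and 0.66 (adjusted p = 0.0215 and 0.0218), and Lrat, which stores vitamin A, by 0.75 in shRNA livers (adjusted p = 0.0445). The summed stellate level was 151 to 282 normalized CPM in Vec and 301 to 336 in Vec+BBR livers, and 187 to 248 in shRNA and 249 to 379 in shRNA+BBR livers, and neither pair overlapped. The part of these cells in the rise of Spp1 was not tested.

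**Figure D5:**
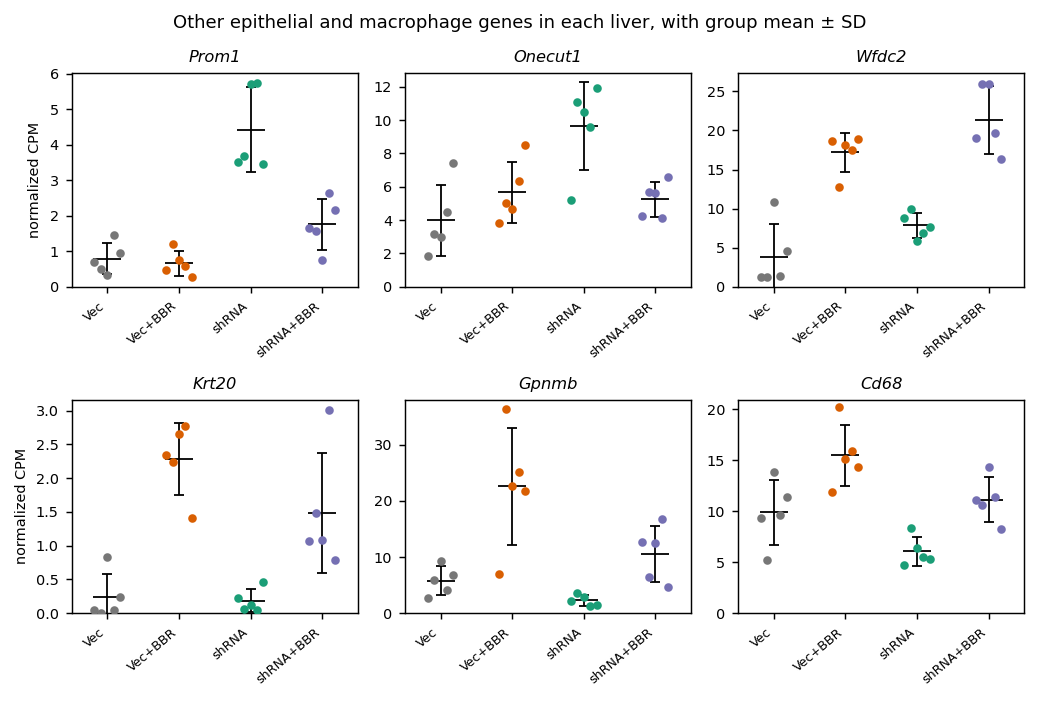
Normalized CPM of Prom1, Onecut1, Wfdc2, Krt20, Gpnmb and Cd68 (y axis from 0, own scale per gene) in the 5 livers of each group (points), with the group mean and SD. Prom1 is highest in shRNA livers (mean 4.42), and Wfdc2 and Krt20 are higher in both groups given BBR.

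Markers of tissue that could be taken along with liver were read in the same way. Of 6 mesothelial markers 4 were tested, 1 rose with knockdown and 1 fell with BBR in shRNA livers, and their summed level ran from 2.54 to 8.44 normalized CPM over all libraries, overlapping between all groups. Pancreatic acinar markers had at most 0.5 normalized CPM in sum, and the defining Cpa1, Prss2 and Pnlip at most 2 counts. Of the intestinal markers, the defining Cdx2 was at 0 in all 20 libraries, while Fabp2 lay between 43.6 and 101 normalized CPM. Of 2 tested intestinal markers, 1 fell with BBR in Vec livers, 1 rose with knockdown under BBR and Fabp2 rose with BBR in shRNA livers by 0.62 (adjusted p = 0.0441, edgeR). Without Vec replicate 3, Fabp2 was also called higher with BBR in Vec livers (edgeR). Of 7 hepatocyte markers, 2 fell with BBR in Vec livers and 1 in shRNA livers, with Cps1, a urea cycle enzyme, down by 1.10 and 0.87 (adjusted p = 0.00294 and 0.017, edgeR) and Tat, which breaks down tyrosine, down by 1.18 in Vec livers (adjusted p = 0.00499). The keratin pair of hepatocytes, Krt8 and Krt18, had log2 fold changes with BBR above 0 in both settings, and neither was called.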

How the data were processed

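RNA of whole liver was enriched with oligo(dT) beads and sequenced in 20 libraries, 1 per mouse. The authors assigned reads to genes and deposited expected counts, which are not normalized, and 91.9% to 93.3% of them per library are whole numbers. The authors also deposited FPKM, scaled by them for the length of the transcript, which served only to compare levels between genes. The build is mm10 per the submitters' processing notes, and the aligner and counter are not given in the sources used here.

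Counts were rounded, filtered with filterByExpr (minimum count 10, minimum total 15), scaled by TMM and fitted with 4 group means in edgeR 4.0.16 (R 4.3.3). Quasi-likelihood tests were adjusted by Benjamini-Hochberg over 12342 genes, with a threshold of 0.05. SE values are the log2 fold change divided by the root of the F statistic. Whether mice shared litters or cages is not stated. The steps were tested on simulated data. Alternatives were size factors of the relative log expression type, DESeq2 1.42.0, limma 3.58.1 (voom), other filters, a fit of 2 groups, a replicate block, no mitochondrial genes and each library left out.

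From each list, at most 4 genes were named, those with the largest change among called genes with a mean count of at least 50. Krt20, Prom1 and other genes said to be so were chosen after their values were seen. They are described with no test, and they remain in the counts of their lists. Correlations used log2 CPM with a prior count of 2. The members and lists were chosen with earlier results of these data known. No pair of libraries within a group agreed within sampling noise. The values of 1 listed marker are not reported here.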

Additional observations from a re-analysis of the deposited data

Results flagged for a closer look

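In 4 of the 40 sets of 5 livers examined, 1 for each gene and group, 1 liver lay far from the others (gap over range above 0.71, Dixon's limit for 5 values). Chance alone gives about 1 such set in 20. Krt8 had 388 normalized CPM in Vec replicate 3, where the next Vec liver had 275. Spp1 had 91.9 in Vec+BBR replicate 2, where the next had 58.5. Lad1 had 1.93 in Vec replicate 2, from 30 counts, where the nearest had 4.14. Epcam had 0.802 in Vec replicate 1, from 16 counts, where the nearest had 0.578.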

How the results depend on the processing

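Of 1092 log2 fold changes of the 8 tested members recomputed under the alternatives, 1034 kept their direction and their side of the threshold. Of the others, 32 turned sign, 12 no longer passed the threshold and 14 newly passed it. With each library left out in turn, the number of members called lay between 2 and 4 for BBR in Vec livers, and between 0 and 2 for knockdown, for knockdown under BBR and for BBR in shRNA livers. DESeq2 called 2 members with knockdown and 2 with knockdown under BBR, limma voom called 2 in the latter, and a fit of only its 2 groups called 0. For the difference of the BBR effects 0 members were called under every alternative run.

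Some log2 fold changes turned sign. For knockdown, Krt19 was 0.04 with limma voom. For knockdown under BBR, Krt7 was −0.03 with limma voom and −0.04 with the replicate block. For BBR in shRNA livers, Sox9 was −0.06 with limma voom and −0.03 with the replicate block. With single libraries left out, Krt7 ran from −0.03 to 0.47 and Krt19 from −0.02 to 0.34 with BBR in Vec livers, Krt7 from −0.40 to 0.11 and Krt19 from −0.19 to 0.17 with knockdown, Krt7 from −0.20 to 0.12 with knockdown under BBR, and Sox9 from −0.08 to 0.18 with BBR in shRNA livers. For the difference of the BBR effects, Krt7 ran from −0.09 to 0.43, Krt8 from −0.14 to 0.14 and Spp1 from −0.31 to 0.13. The causes were not tested.

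The replicate numbers did not pair the livers, since livers with the same number deviated together (correlation over 0.1) for 3 of the 5 numbers when shRNA was set beside shRNA+BBR and in at most 1 of 5 between the other groups, and 11 of 60 matches were best with their own number. With the replicate number as a block, 2 members were called with knockdown under BBR, Krt8 being added, and the other comparisons kept their number of calls.

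Depth limits Krt7, Krt19, Epcam and Sox9, at 6 to 49 counts per library. Of 30 ratios of group means computed from the deposited FPKM, 0 moved by more than the spread between livers, and the largest difference from normalized CPM was 0.48 on the log2 scale.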
